A study of Rattus norvegicus with 6 samples.

Results

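Genes for fibroblast growth factors (FGF), platelet-derived growth factors (PDGF), vascular endothelial growth factors (VEGF), angiopoietins and their receptors were examined for trimethylation of lysine 27 of histone H3 (H3K27me3). The set was defined by gene symbol, with earlier results of these data known. It comprises FGF, PDGF, VEGF, angiopoietin and angiopoietin-like genes, the receptor genes Flt1, Flt4, Kdr, Tek and Tie1, and the pairs Hgf with Met and Kitlg with Kit. It holds 56 of the 22427 genes that at least 1 library listed with a peak. Both groups were neonatal primary cardiomyocytes from the hearts of Sprague Dawley rats, cultured in medium with serum. The control group received phosphate-buffered saline (PBS) and the other group 5 mM α-ketoglutarate (α-KG), a metabolite that demethylases of histones use as a cosubstrate, in both cases for 24 h. Each group held 2 chromatin immunoprecipitation libraries, named control 1 or 2 and α-KG 1 or 2, and the 2 samples labelled as input were not analysed here. The labels give no passage, purification or pooling of the cells and do not say that the libraries came from separate cultures, so the spread between them may be technical. Each deposited list names genes with a peak and nothing else. A gene is therefore listed or not listed, and the height, width and place of its peak and the depth of the library are unknown.

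H3K27me3 is placed by Polycomb repressive complex proteins and is typical of developmental genes that a cell holds silent. The growth factors described here bind receptors that are mostly tyrosine kinases of the cell surface, which signal through the Ras, phosphatidylinositol kinase and phospholipase C routes. In the heart, FGFs act on growth of the myocardium and its vessels, VEGFs and angiopoietins shape the endothelium, and PDGFs act on fibroblasts and on the cells that coat vessels. A listing does not show that a gene was silent.

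Of the FGF genes that any library listed, nearly all were in all 4, and the angiopoietin-like genes were the most variable of the families. Of the 56 genes, 41 (73.2%) were listed in all 4 libraries, where 62.8% of all listed genes were. The remaining 15 comprised 7 genes in 3 libraries, 4 in 2 and 4 in 1. FGF genes proper had 25 of 26 in all 4, VEGF genes 6 of 8, PDGF genes 5 of 7, angiopoietins with their Tie receptors 2 of 5, and angiopoietin-like genes 0 of 4. The share was near equal for ligands (26 of 35, 74.3%) and receptors (11 of 15, 73.3%). Of the other roles, intracellular FGFs had 4 of 4 and the fusion partner genes Fgfr1op and Fgfr1op2 had 0 of 2. FGF genes made up 17 of the 35 ligands and 5 of the 15 receptors, so roles and families are mixed. These are counts without a test, since genes are not replicates.

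**Figure D1:**
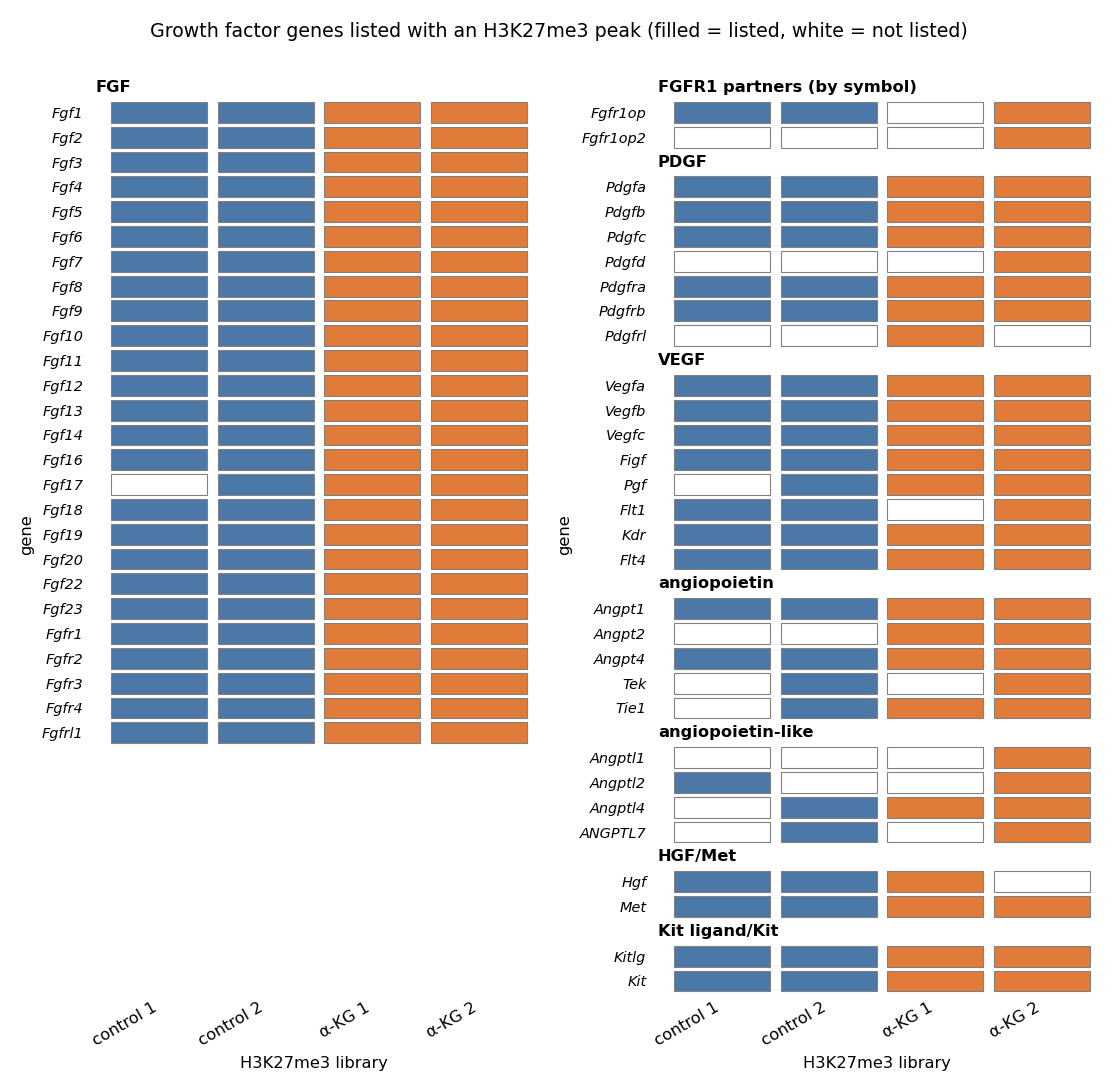
Each row is 1 of the 56 genes and each column 1 H3K27me3 library (blue for control, orange for α-KG), with a filled tile where the gene was listed and a white tile where it was not. The FGF panel has 1 white tile, in control 1 at Fgf17, and the white tiles of the other panel are spread over all 4 libraries.

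Secreted FGFs, most of which act on neighbouring cells through FGF receptors and heparan sulfate, were listed in 16 of 17 cases in all 4 libraries. The pair Fgf1 and Fgf2, found in the adult heart and vessels, was listed in every library. So were Fgf4, Fgf5 and Fgf6, and Fgf3, Fgf7, Fgf10 and Fgf22, a group that includes the mesenchymal signals to epithelia Fgf7 and Fgf10. Fgf9, Fgf16 and Fgf20, of which Fgf9 and Fgf16 are known from the growing myocardium, had the same 4 listings. Among the 3 relatives of Fgf8, an organiser of limb, brain and heart outflow tract, Fgf8 and Fgf18 were in all 4. Fgf17 was not listed in control 1 and was listed in control 2, α-KG 1 and α-KG 2. The endocrine factors Fgf19, an intestinal hormone gene that RefSeq also calls Fgf15, and Fgf23, the bone hormone that lowers phosphate, were in all 4. Fgf21 matched no entry in any of the 4 lists, so the 17 secreted FGFs do not include it.

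The intracellular FGFs, which are not secreted and bind voltage-gated sodium channels, were listed without exception: Fgf11, Fgf12, Fgf13 and Fgf14 were in all 4 libraries. The same was true of the receptor genes Fgfr1, Fgfr2, Fgfr3 and Fgfr4 and of Fgfrl1, whose product lacks the kinase. Thus control 1 listed 25 of 26 FGF genes and each of the other 3 libraries listed 26. Fgfr1op and Fgfr1op2 match the symbol rule but encode fusion partners of the FGFR1 kinase in leukaemia and no receptor. Fgfr1op, a centrosomal protein gene that RefSeq names Cep43, was listed in control 1, control 2 and α-KG 2 but not in α-KG 1. Fgfr1op2 was listed in α-KG 2 alone.

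PDGF genes were split between 5 listed everywhere and 2 listed once. The ligand genes Pdgfa and Pdgfb, whose products form the classical dimers, and Pdgfc, whose product is activated by cleavage of a CUB domain, were in all 4 libraries. Pdgfd, whose product has the same CUB domain plan as that of Pdgfc, was listed in α-KG 2 and in none of control 1, control 2 and α-KG 1. Among receptors, Pdgfra, a marker of fibroblasts and their progenitors, and Pdgfrb, a marker of pericytes, were in all 4. Pdgfrl, a receptor-like gene without a kinase, was listed in α-KG 1 and in none of control 1, control 2 and α-KG 2. Both genes thus had their 1 listing in an α-KG library, but not in the same one. Over all genes, 6.96% were in α-KG 2 alone and 2.03% in α-KG 1 alone. For control 1 alone and control 2 alone the shares were 1.73% and 2.27%.

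To set the start regions of rarely listed genes beside those of steadily listed ones, the 250 bases before the start are shown for Angptl1, Fgfr1op2 and Pdgfd, each found in 1 library, and for Pdgfa, Angpt4 and Pdgfra, each found in all 4. Pdgfa is the relative of Pdgfd, Angpt4 that of Angpt2, and Pdgfra that of Pdgfrl. Angpt2 and Pdgfrl are named only, and no relative is shown for Angptl1 and Fgfr1op2. Sequences are from RefSeq (GRCr8), 5′ to 3′ on the strand of the gene, with each CG dinucleotide in capitals, since Polycomb marks in mammals gather at CG-rich starts. The authors' peaks are on another build and have no positions here, so these windows are not peaks.
Pdgfd: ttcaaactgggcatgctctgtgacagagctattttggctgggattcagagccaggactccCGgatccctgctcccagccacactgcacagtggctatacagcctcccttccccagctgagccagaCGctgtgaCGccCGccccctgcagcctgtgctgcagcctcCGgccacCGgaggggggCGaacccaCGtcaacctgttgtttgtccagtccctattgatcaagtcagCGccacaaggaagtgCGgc
Pdgfa: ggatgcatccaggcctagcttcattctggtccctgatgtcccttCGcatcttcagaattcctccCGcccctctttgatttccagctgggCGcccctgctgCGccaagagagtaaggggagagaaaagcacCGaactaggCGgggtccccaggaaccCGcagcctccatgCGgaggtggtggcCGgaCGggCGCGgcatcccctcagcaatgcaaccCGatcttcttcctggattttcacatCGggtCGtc
Pdgfra: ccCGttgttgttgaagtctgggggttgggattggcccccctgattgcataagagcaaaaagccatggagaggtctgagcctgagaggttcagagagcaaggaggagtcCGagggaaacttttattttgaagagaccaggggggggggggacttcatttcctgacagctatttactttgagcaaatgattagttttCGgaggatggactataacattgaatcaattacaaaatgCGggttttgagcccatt
Angptl1: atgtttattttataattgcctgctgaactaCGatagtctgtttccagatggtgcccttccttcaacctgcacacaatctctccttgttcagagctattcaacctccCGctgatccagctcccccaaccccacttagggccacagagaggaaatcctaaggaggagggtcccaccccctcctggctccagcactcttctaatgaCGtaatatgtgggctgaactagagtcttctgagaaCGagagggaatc
Angpt4: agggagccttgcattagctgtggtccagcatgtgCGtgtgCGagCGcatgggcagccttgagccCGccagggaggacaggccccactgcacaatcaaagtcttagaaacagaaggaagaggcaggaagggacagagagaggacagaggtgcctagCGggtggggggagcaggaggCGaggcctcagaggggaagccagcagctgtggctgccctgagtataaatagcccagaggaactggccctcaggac
Fgfr1op2: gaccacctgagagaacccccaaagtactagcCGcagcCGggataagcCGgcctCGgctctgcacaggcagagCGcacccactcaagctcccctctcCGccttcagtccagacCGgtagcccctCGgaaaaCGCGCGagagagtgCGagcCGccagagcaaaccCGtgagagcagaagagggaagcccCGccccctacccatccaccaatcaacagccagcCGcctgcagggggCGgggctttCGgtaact
In GRCr8 the windows lie at chr8:11773258-11773507 (Pdgfd, plus strand), chr12:20759116-20759365 (Pdgfa, plus strand), chr14:33408517-33408766 (Pdgfra, minus strand), chr13:71513097-71513346 (Angptl1, plus strand), chr3:160880480-160880729 (Angpt4, plus strand) and chr4:181222048-181222297 (Fgfr1op2, plus strand). The Pdgfd window has 10 CG dinucleotides and the Pdgfa window 15. As many or more are found in 35.9% and 25.8% of the 33469 start windows of the same length. The Pdgfra window has 4 and the Angptl1 window 4, a number that 62.6% of windows reach. The Angpt4 window has 6 (reached by 49.8%) and the Fgfr1op2 window 18 (reached by 20.1%). Steadily and rarely listed genes were thus found on both sides of the median of 5 per window: the steadily listed Pdgfra had as few CG dinucleotides as Angptl1, which 1 library listed, and Fgfr1op2, also in 1 library, had the most of the 6.

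VEGF genes were listed steadily, with 1 exception on each side. Vegfa, the main driver of vessel growth, Vegfb, Vegfc and the VEGF-D gene Figf, the latter pair acting on lymphatic vessels, were in all 4 libraries. The placental growth factor gene Pgf, a ligand of the Flt1 product, was not listed in control 1 and was listed in control 2, α-KG 1 and α-KG 2. Of the receptors, Kdr, which carries most of the VEGF signal in endothelium, and Flt4, the receptor of lymphatic endothelium, were in all 4. Flt1, whose product binds VEGF tightly and can act as a decoy, was listed in control 1, control 2 and α-KG 2 but not in α-KG 1.

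Angiopoietin signalling had the 1 gene of the 56 that divided cleanly by treatment. Angpt2, whose product is released by endothelial cells and mostly opposes Angpt1 at the Tie2 receptor, was listed in α-KG 1 and α-KG 2 and in neither control 1 nor control 2. The ligand genes Angpt1, the stabilising agonist, and Angpt4 were in all 4 libraries. The Tie2 receptor gene Tek was listed in control 2 and α-KG 2 and not in control 1 and α-KG 1. Its partner receptor gene Tie1 was listed in control 2, α-KG 1 and α-KG 2 and not in control 1. Neither Tie receptor gene was therefore listed in control 1, which had the shortest list, and both were in control 2 and α-KG 2. Among endothelial markers as a whole, control 1 listed 11 of 15 entries, control 2 listed 15, α-KG 1 listed 13 and α-KG 2 listed 14. Flt1, Kdr, Tek and Tie1 are themselves 4 of these 15, and the part of other cell types in their listing was not tested.

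The angiopoietin-like genes encode secreted proteins that share the fold of angiopoietins but are generally not ligands of the Tie receptors. Angptl4, an inhibitor of lipoprotein lipase, was listed in control 2, α-KG 1 and α-KG 2 and not in control 1. The gene with the symbol ANGPTL7 was listed in control 2 and α-KG 2, Angptl2 in control 1 and α-KG 2, and Angptl1 in α-KG 2 alone. Every one of the 4 was thus listed in α-KG 2, while control 1, control 2 and α-KG 1 listed 1, 2 and 1 of them. Across the wider set with the C-terminal fibrinogen domain that marks angiopoietins, 2 of 6 genes described here and 13 of 27 other genes were in all 4 libraries. The entry of Angptl1 carries no domain name and is not among the 6. By contrast, the FGF domain was found in 21 of the 56 genes, of which 20 were in all 4, and in 1 other listed gene, which was not. The PDGF/VEGF domain was found in 9, of which 7 were.

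Hgf, which encodes a secreted factor that acts through the Met receptor on epithelium and endothelium, was listed in control 1, control 2 and α-KG 1 but not in α-KG 2. It was 1 of only 2 of the 56 genes that α-KG 2 did not list, the other being Pdgfrl. Its receptor gene Met was in all 4, as were Kitlg and Kit, the stem cell factor and its receptor.

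**Figure D2:**
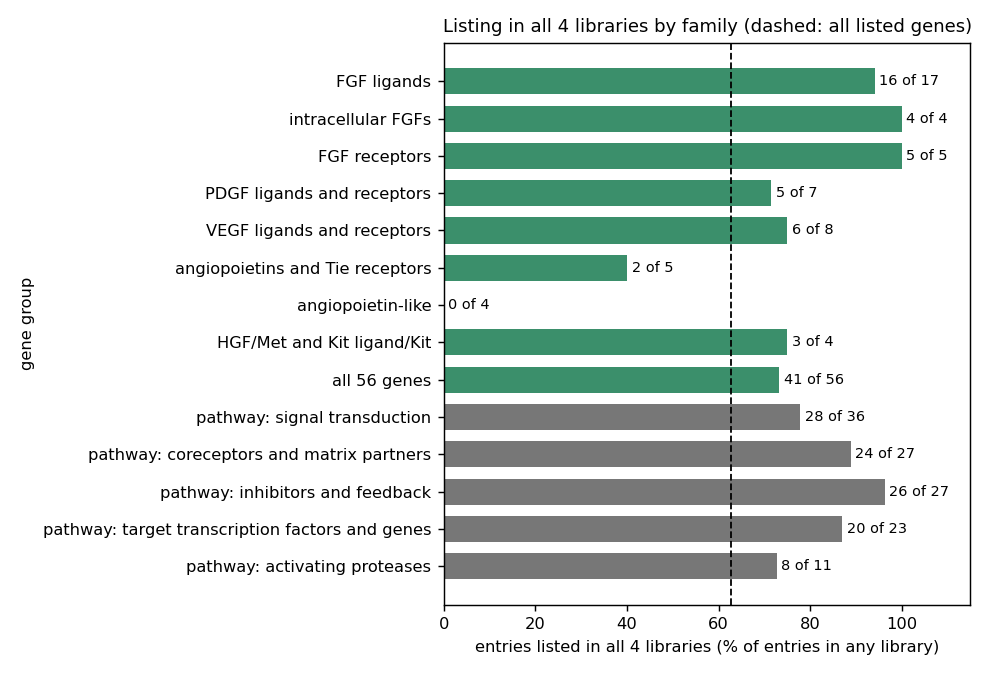
Bars give the share of entries listed in all 4 libraries, as a percent of the entries listed in any, for the growth factor families (green) and for the fixed lists of other pathway genes (grey), with the counts at the bar ends. The FGF groups stand at 94.1% to 100%, the angiopoietin-like genes at 0 of 4, and the dashed line marks 62.8% for all listed genes.

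The treatment comparison asked whether these genes changed their listing with α-KG. Control 1 listed 45 of the 56 genes, control 2 listed 50, α-KG 1 listed 48 and α-KG 2 listed 54. The groups overlapped, since α-KG 1 lay between the controls. Control libraries listed 47.5 ± 3.54 of these genes on average and α-KG libraries 51 ± 4.24 (SD, n = 2 in either group), a difference of 3.5 genes. The mean of the 2 libraries numbered 2 exceeded that of the 2 numbered 1 by 5.5 genes, so the treatment difference was smaller than the spread between replicates. Over all genes the difference was 807, where p was 0.667 by exact permutation of the 4 libraries (two-sided), a test that cannot go below 0.33 here.

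Loss means that both controls and no α-KG library listed the gene. It was found for 0 of the 44 growth factor genes that both controls listed, beside 3.22% of all such genes. Gain, the reverse, was found for 1 of 46, Angpt2 (2.17%), beside 4.48% of all genes listed in both α-KG libraries. Both counts lay within 2 genes of what these shares give. With α-KG 1 left out, Hgf would count as lost (1 gene), and with α-KG 2 left out Flt1 and Fgfr1op would (2 genes). Gain held 5 genes when control 2 was left out, 4 when α-KG 1 was, 2 when α-KG 2 was, and Angpt2 alone when control 1 was. Fewer libraries then define loss and gain for every gene, and the shares of all genes under these settings are not given here. Counted more loosely, 9 of the 56 genes were in more α-KG than control libraries (16.1%, beside 18.8% of all genes) and 3 in more control than α-KG libraries (5.36%, beside 12.6%). The 9 were Angpt2, Angptl1, Angptl4, Fgf17, Fgfr1op2, Pdgfd, Pdgfrl, Pgf and Tie1, and the 3 were Flt1, Fgfr1op and Hgf. Of the 9, Angptl4, Fgf17, Pgf and Tie1 lacked a listing in control 1 alone. Angptl1, Fgfr1op2 and Pdgfd were in α-KG 2 alone, as were 6.96% of all genes. Control 1 had the shortest list of all genes (17245) and α-KG 2 the longest (19181). The part of list length in these patterns was not tested.

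Other genes of the same pathways were counted from fixed lists, which were chosen with earlier results of these data known. Together they had 124 entries for 129 genes, of which 106 (85.5%) were in all 4 libraries, 0 were lost and 2 were gained. The 0 lost were of 107 entries in both controls, beside 3.22% of all genes, and the 2 gained were of 113 entries in both α-KG libraries (1.77%, beside 4.48%). Feedback inhibitors had 26 of 27 in all 4, among them Dusp6, a phosphatase of Erk, Il17rd, an inhibitor of FGF receptors, Spred1, Spry1 and Spry2. The exception was Spry4, another Sprouty inhibitor, which was listed in control 2 and α-KG 2. Coreceptors and matrix partners had 24 of 27, including the VEGF coreceptors Nrp1 and Nrp2, the Fgf23 coreceptor Kl and the heparan sulfate proteoglycan genes Gpc1, Sdc1 and Sdc4. Target transcription factors and other target genes had 20 of 23, with Etv4, Etv5, Egr1, Myc and Sox17 as examples. Proteases that activate these ligands had 8 of 11, including Plau and Furin, while Hgfac, the activator of the Hgf product, was in α-KG 2 alone.

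Genes of the signal transduction step had 28 of 36 entries in all 4 libraries, and their 8 exceptions each had more α-KG than control listings. Stat3, a transcription factor activated by receptor kinases, and Tnip2, an adaptor at the NF-κB and Erk routes, were found in each α-KG library but in no control. These were 2 of 32 entries in both α-KG libraries (6.25%, beside 4.48% of all genes). Nras, Map2k1, the gene of an Erk pathway kinase, and the adaptor gene Crkl were in α-KG 2 alone, and PIK3CA, the catalytic subunit of a phosphatidylinositol kinase, was in α-KG 1 alone. Map2k2 lacked control 1 and the adaptor gene Nck1 lacked control 2. Control 1 and control 2 each listed 29 of the 36 entries, α-KG 1 listed 33 and α-KG 2 listed 35. Both α-KG libraries thus lay above both controls, unlike for the growth factor genes. The same held for coreceptors and matrix partners (25 in each control, 26 and 27 with α-KG), but not for the remaining pathway lists. The pathway lists together also had this order (110 and 111 in the controls, 117 and 120 with α-KG). Of the 36 signal transduction entries 8 is 22.2%, beside 18.8% of all genes in more α-KG than control libraries. That share was lower, at 11.1% (3 of 27), for coreceptors and matrix partners and 12.1% (15 of 124) for the pathway lists together. In more control than α-KG libraries was 1 of the 124 entries (0.806%), beside 12.6% of all genes.

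CG content at the gene start was compared because the rule did not use it. The CpG ratio, the number of CG dinucleotides divided by the number that the C and G content gives by random order, was computed over 300 bases around the start, from 250 before to 50 after. The promoter sequences used here covered 45 of the 56 genes, and a gene with several starts got their mean. The 11 genes without one included Angpt2, Fgf17 and Tek, which were not in all 4 libraries. The median ratio was 0.618 for the 45 genes (quartiles 0.448 to 0.764) and 0.672 for 13374 listed genes (quartiles 0.344 to 0.863). Growth factor genes in all 4 libraries had a median of 0.618 (n = 35) and the others 0.571 (n = 10). Over all genes the medians were 0.720 for those in all 4 libraries and 0.560 for the rest. The median over all genes was not lowest in the genes of 1 library, which had 0.610, but in those of 3 (0.524). Within the families, the ratio ranged from 0.357 (Fgf1) to 1.09 (Fgfr2) for FGF genes. It was 0.242 for Figf and 0.913 for Vegfc, and both were in all 4 libraries. Low ratios were also found for Hgf (0.273), Angptl2 (0.288), Angptl1 (0.305) and Tie1 (0.355), which were not in all 4, and for Angpt4 (0.224), Met (0.320) and Pdgfra (0.329), which were.

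**Figure D3:**
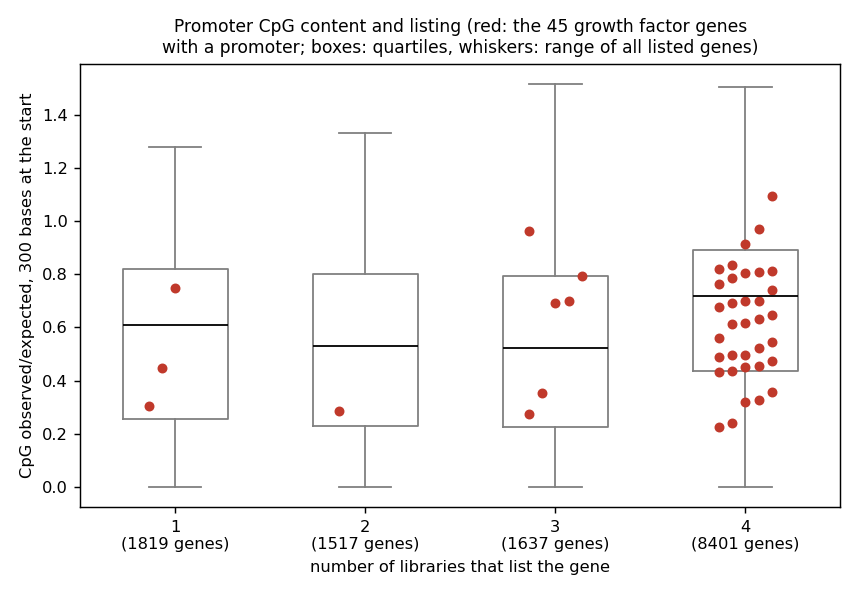
The vertical axis is the CpG observed/expected ratio over 300 bases at the start and the horizontal axis the number of libraries listing the gene. Boxes give the quartiles and whiskers the range of all listed genes with a promoter sequence. Red points are the 45 growth factor genes with one, which in the group of 4 libraries run from 0.224 to 1.09.

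Place in the genome was the other property not used by the rule. All 56 genes could be placed in the RefSeq gene order of GRCr8, 2 of them under a newer symbol, and this assembly served for order and overlap only. Several growth factor genes are direct neighbours, with no other protein-coding gene starting between them: Fgf3, Fgf4 and Fgf19, then Fgf6 and Fgf23, and the receptor genes Kdr, Kit and Pdgfra. All 8 were in all 4 libraries. Neighbours can share a peak, so these 8 listings need not be 8 separate peaks.

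Overlap with another protein-coding gene went with fewer listings among these genes. Of 12 that overlap another gene, 5 were in all 4 libraries, and of 44 that overlap none, 36 were (81.8%). The 5 were Fgf1, Fgf2, Fgf7, Fgf13 and Fgf14, all FGF genes, so this contrast is mixed with that between families. Pdgfd, which contains Ddi1, and Pdgfrl, which overlaps Mtus1 in part, were each in 1 library. No listing was matched for Ddi1 or Mtus1. Over all placed genes the corresponding shares were 59.2% of 2794 and 65.0% of 13142, a smaller gap. The overlap was found for 4 of the 7 angiopoietin and angiopoietin-like ligand genes. Angpt2 lies inside Mcph1, a gene for a protein of chromosome condensation, and Mcph1 was listed in all 4 libraries. Angptl2 lies inside Ralgps1 and Angptl1 overlaps Ralgps2, a pair of genes for Ral exchange factors, and both were in all 4. ANGPTL7 lies inside Mtor, the growth kinase gene, which was in control 2, α-KG 1 and α-KG 2. These 4 ligand genes were each in fewer libraries than the gene they overlap, and 0 of them was in all 4. Of the 3 ligand genes without an overlap, Angpt1 and Angpt4 were in all 4 and Angptl4 in 3. Overlap was not tied to fewer listings in every family: Fgf1 lies inside Arhgap26 and Fgf7 inside Fam227b, and both were in all 4, as Arhgap26 was, while Fam227b was in 3. Fgf14 and its partial overlap partner Itgbl1 were both in all 4. Fgf2 was in all 4 while Nudt6, which it overlaps in part, was in 3. Fgf17, listed in control 2, α-KG 1 and α-KG 2, overlaps Npm2 in part, and Npm2 was found in the controls alone. Over all placed genes, 51.6% of the 444 that lie inside another protein-coding gene were in all 4 libraries, beside 64.3% of the other 15492. Of the 136 that lie inside a gene in all 4 libraries, as Angpt2 and Angptl2 do, 63 were in fewer than 4. Of all 253 that lie inside any listed gene, 82 were in fewer libraries than that gene and 76 in more. How the authors assigned a peak to overlapping genes is not given in the sources used here, and its part in these patterns was not tested.

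The nearest listed gene on either side of each of the 15 variable genes was in all 4 libraries in 20 of 30 cases (66.7%, beside 62.8% of all listed genes). The variable gene had the same listing as a neighbour in 2 cases, Fgfr1op2 with Ints13 (both in α-KG 2 alone) and ANGPTL7 with Exosc10 (both in control 2 and α-KG 2). Around Angpt2, both Agpat5 and Csmd1 were in all 4 libraries, so its gain was not shared by its neighbours. Around Tek and Tie1, none of the 4 neighbours was in all 4.

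**Figure D4:**
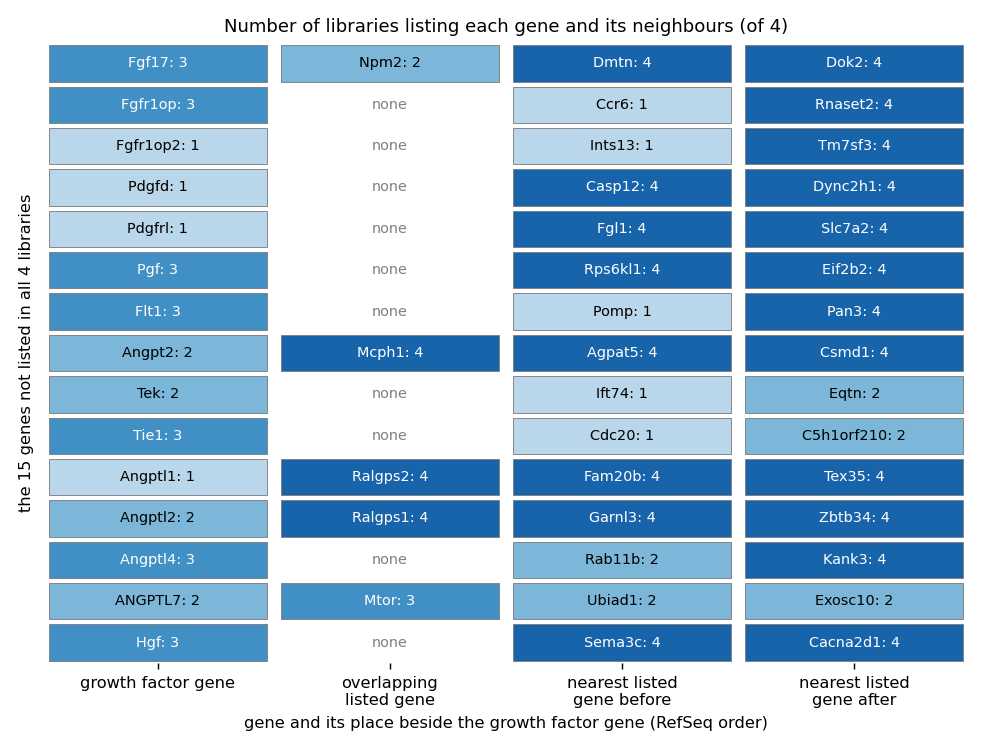
Each row is 1 of the 15 genes not listed in all 4 libraries, and columns give that gene, a listed protein-coding gene that overlaps it ("none" where there is none) and the nearest listed genes before and after it in RefSeq order. The number after each symbol, and the depth of blue, is the number of libraries out of 4 that listed the gene, for example 2 for Angpt2 and 4 for Mcph1.

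The labelled cell type could not be checked by expression, since a listing is not a level. Of 12 cardiomyocyte markers, 10 had an entry and 5 (Actn2, Mb, Myl2, Pln and Tnnt2) were in all 4 libraries. Myh6 and Ttn matched no entry, and the 10 entries numbered 6 and 7 in the controls and 6 and 7 with α-KG. Ryr2 was listed in control 1 and control 2 and in neither α-KG library. It was the 1 lost of 6 cardiomyocyte entries in both controls, beside 3.22% of all genes. Markers of other cells that such cultures can hold were listed in all 4 for 10 of 15 endothelial, 6 of 9 fibroblast, 6 of 8 pericyte and smooth muscle, and 3 of 5 immune entries. These shares were 66.7%, 66.7%, 75% and 60%, and the cardiomyocyte share 50%, beside 62.8% of all listed genes. The 15 endothelial entries stand for 14 genes, since Robo4 has more than 1 gene ID. Pdgfra in the fibroblast list and Pdgfrb in the pericyte list are themselves among the 56 genes. The 9 fibroblast entries numbered 9 and 7 in the controls and 6 and 8 with α-KG, and the 8 pericyte and smooth muscle entries numbered 6 and 8 in the controls and 7 in each α-KG library. A bulk list cannot tell a mark carried in few cells from a weak mark in many.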

How the data were processed

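H3K27me3 chromatin immunoprecipitation and sequencing was deposited for 4 libraries of neonatal rat cardiomyocytes, grouped by title, and the 2 input samples were not analysed here. The authors deposited, for each library, the Ensembl gene ID, symbol and protein domain names of genes with a peak, without counts, scores or positions. Depth is therefore unknown and no interval for counting error was computed. CASAVA, BWA, MACS2 and rn6 are named in the submitters' processing notes, without roles. The sources used here do not give the peak threshold, the rule that assigned peaks to genes or how input was used.

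Lists were read with Python 3.11.15, pandas 2.3.3 and numpy 2.4.6, and figures drawn with matplotlib 3.10.9. Entries were counted by gene ID. The steps were tested on simulated data. Members and gene lists were chosen with earlier results of these data known, so no p-value was computed over them. Every member is named, promoters are those of members changed or in 1 library (up to 5) and of their first relatives in all 4, with Angpt2 and Pdgfrl named only, and list genes are named where lost or gained, with examples. List examples and exceptions beyond these were chosen after their values were seen. RefSeq symbols (GRCr8) matched 15936 of 22427 entries as single genes, and a promoter sequence was found for 13374. Alternatives were leaving out each library, pairing by replicate number, merging entries of 1 symbol, narrower gene sets, looser definitions of loss and gain, and a promoter window of 250 bases.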

Additional observations from a re-analysis of the deposited data

How the results depend on the processing

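Counts of 1 gene or none depend on each library. Leaving out 1 library in turn gave 0 to 2 lost and 1 to 5 gained growth factor genes (fewer libraries then define the pattern), 41 to 45 genes in all remaining libraries, and an α-KG minus control difference of 0.5 to 6.5 genes. The highest number of gained genes came without control 2 and the highest number of lost genes without α-KG 2. The looser definition gave 3 lost and 9 gained genes. Replicate numbers are shared by the groups, but nothing in the labels says that they pair libraries, and the correlation of same-numbered deviations over genes was 0.0478. With a replicate block, pair 1 alone gave 3 lost and 6 gained genes and pair 2 alone 1 and 5, while the difference stayed at 3.5 genes. No shares of all genes are given beside the lost and gained counts of settings with fewer libraries. Merging entries of 1 symbol and leaving out Fgfr1op and Fgfr1op2 (added after the data were seen) changed none of the 4 counts. Without angiopoietin-like, Hgf, Met, Kit and Kitlg genes, 38 genes were in all 4 libraries, 0 lost, 1 gained, and the difference was 3 genes. The median CpG ratio was 0.655 over the 250 bases before the start, above the 0.642 of all listed genes, whereas over 300 bases it was below. The difference over all listed genes stayed positive, from 208.5 to 1405.5. With no depth or score in the lists, a gene that was not listed may have missed the authors' threshold by little.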
